A study of Homo sapiens with 4 samples.

Results

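Distal H3.3 peaks found only before UV were the intervals of the no UV peak list that lay over 5 kb and at most 50 kb from the nearest annotated transcription start site (TSS) and had no interval of the UV list within 2 kb. The members were thus selected on the presence of a peak in one list and its absence from the other. The rule gave 10764 regions, 29.2% of the 36915 distal regions and part of the 88806 distinct intervals of the no UV list on chromosomes 1 to 22 and X. The remaining 26151 distal regions had a UV interval within 2 kb and are called shared. For reference, 17.8% of the 29025 distal regions of the UV list (5153 regions) had no interval of the no UV list within 2 kb. Among the 48096 intervals within 5 kb of a TSS before UV, 17.6% (8472 intervals) had no UV interval that close.

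H3.3 was immunoprecipitated (Abcam antibody ab176840) from wild-type MRC5_VA cells, a human fetal lung fibroblast line immortalized with SV40 that the sample labels name MRC5. One group was left untreated, and the other received 10 J/m2 of UV-C and recovered for 3 h. DNA of 3 replicates was pooled in each group, which left 1 library per condition, and differences between the conditions were not tested because they rest on single libraries. Shares carry exact Clopper-Pearson 95% intervals and medians 95% intervals from the ranks of the values. Both cover counting error only, and neighbouring regions are not independent.

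H3.3 is the histone H3 variant that is placed into chromatin outside DNA replication. The HIRA chaperone deposits it at active genes, promoters and enhancers, and the DAXX and ATRX proteins place it at heterochromatin and repeated DNA. Distal H3.3 in fibroblasts therefore can mark enhancers as well as repeats. Alu elements, the most abundant short interspersed repeats of the human genome, derive from 7SL RNA, the RNA of the signal recognition particle.

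The no UV list held more peaks than the UV list, with 102949 and 89740 rows and 88806 and 77173 distinct intervals. The lists give no read numbers, so the part played by sequencing depth in the presence of a peak was not tested. Of 10 fibroblast marker genes, 5 had an H3.3 interval no farther than 1 kb from a TSS before UV and 5 after, with COL3A1, THY1, DCN and LUM lacking one in both lists. The same held for 3 of 6 epithelial markers in both lists, for 0 of 5 endothelial markers in both, and for 2 of 5 blood markers before UV and 1 after.

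The 201 bases around the summits of a pair of members without a match to 7SL RNA are shown. They are on the plus strand of hg38 and serve as examples of sequence outside the repeat. The first is the strongest of these members (chr19:13978605-13978805, intron of RFX1). The second is the strongest of single-copy sequence with an AP-1 motif in the window shown (chr7:1289956-1290156, between genes). Their peak strengths, as −log10 q, were 24.1 and 9.18. Capitals mark matches to the AP-1 letters TGANTCA, here TGAATCA and TGATTCA, and the first sequence has none.
RFX1: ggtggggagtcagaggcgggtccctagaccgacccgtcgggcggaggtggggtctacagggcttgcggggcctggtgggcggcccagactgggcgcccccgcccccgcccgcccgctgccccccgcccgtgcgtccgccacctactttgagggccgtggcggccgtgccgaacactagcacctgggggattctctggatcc
nearest to ENSG00000233082: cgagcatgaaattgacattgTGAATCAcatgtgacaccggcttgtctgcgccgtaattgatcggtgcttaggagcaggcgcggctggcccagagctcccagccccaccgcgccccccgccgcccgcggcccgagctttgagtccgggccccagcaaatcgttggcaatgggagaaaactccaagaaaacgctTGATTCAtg

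The RFX1 window had 75.1% GC, and its median 24-mer (a run of 24 bases) occurred once in hg38. The other window held AP-1 motifs on either side of a GC-rich centre, and its GC content was 60.2%. Both windows are untypical in GC content, since the median of members without a match was 42.1% and their 95th percentile 56.9%.

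Most members, however, carried sequence related to 7SL RNA at their summit. A match to RN7SL1, a gene of 7SL RNA, with an E value (the number of matches this good that a search would give by chance) of at most 0.001 was found within 150 bp of the summit in 7645 of 10764 members, or 71.0% (70.2 to 71.9%). The share was 71.8% (71.2 to 72.3%) in shared distal regions, 68.4% (67.1 to 69.7%) in distal regions found only after UV and 64.8% over all no UV intervals. Windows of the same length at every 50 kb of hg38 served as genome background, and 17.6% (17.1 to 18.0%) of those at distal positions held a match. The match was thus common to distal H3.3 regions of both lists. Members had a share that differed from that of shared regions by -0.740 percentage points (-1.76 to 0.277), yet a higher one in 9 of 10 deciles of peak strength (classes of equal size by −log10 q before UV), and the direction of this difference changed with the settings of the rule. It was 2.60 points (0.868 to 4.27) with −log10 q of at least 5 required in the no UV list only, and -6.54 points (-7.46 to -5.62) where every region without an overlap was counted as absent. The matches in members had a median length of 66 bases and a median identity to RN7SL1 of 85.1%.

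Coverage by 7SL matches was centred on the summits. At the summit itself, 37.0% of members lay inside a match, compared with 39.1% of shared regions, 35.8% of regions only after UV and 5.84% of distal background windows. At 250 bp before the summit in hg38 coordinates the share of members had dropped to 9.21%, and at 500 bp before it was 6.80%.

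In 52.9% of member windows (51.9 to 53.8%), the median 24-mer was present 10 or more times in hg38, and the same held for 57.3% of shared windows. How the aligner placed reads from such sequence was not given in the sources used here, and its part in the peaks was not tested.

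**Figure D1:**
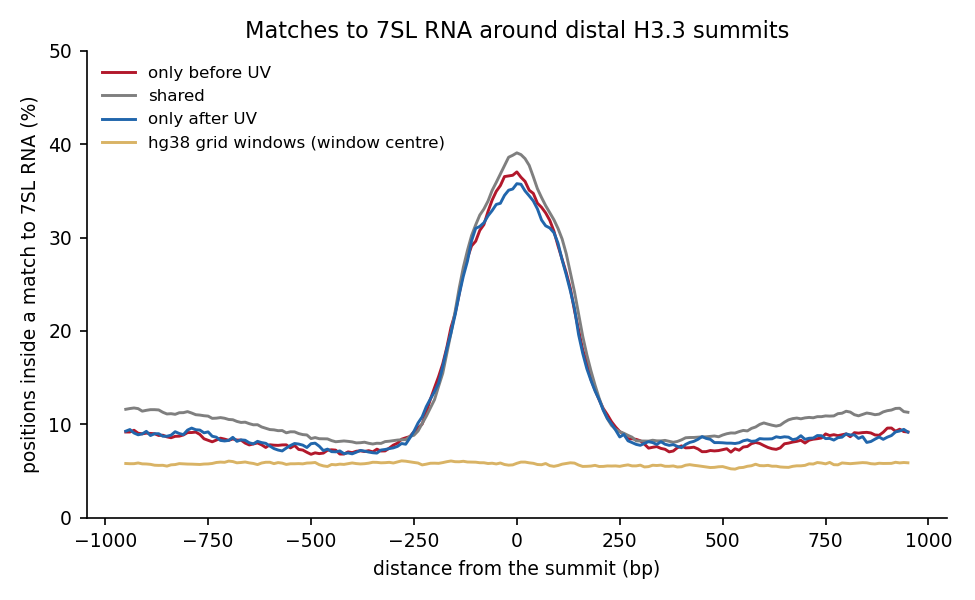
Share of positions (%, y axis) inside a match to 7SL RNA against the distance from the summit (bp, x axis) for distal H3.3 regions only before UV, shared, and only after UV, and for distal background windows of hg38. The 3 sets of H3.3 regions peak between 35.8% and 39.1% at the summit, and the background stays near 5.84%.

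Absence after UV followed the strength of the peak before UV. All no UV intervals were split into deciles by −log10 q, the significance of a peak as given by the authors, which is not its fold enrichment. In the weakest decile, 48.9% (47.5 to 50.3%) of distal regions had no UV interval within 2 kb. The share was 28.1% in the sixth decile, 4.22% in the ninth and 0.420% (0.210 to 0.750%, 11 of 2620 regions) in the strongest. In the UV list, the share without a no UV interval within 2 kb fell from 29.1% (27.6 to 30.7%) in the weakest decile to 0.483% (0.194 to 0.993%) in the strongest. Members had a median −log10 q of 3.50 (3.48 to 3.63) and a median fold enrichment of 3.99, compared with 5.52 and 4.66 in shared regions. These 2 measures come from the same list as the rule and are given as a description. Where −log10 q of at least 5 was required in the no UV list only, 14.3% of distal regions (2341 regions) lacked a UV interval within 2 kb, and where it was required in both lists, 30.5% did. Counting every region without an overlap as absent gave 18383 members, since 70.9% of shared regions overlapped a UV interval and the others lay within 2 kb of one.

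**Figure D2:**
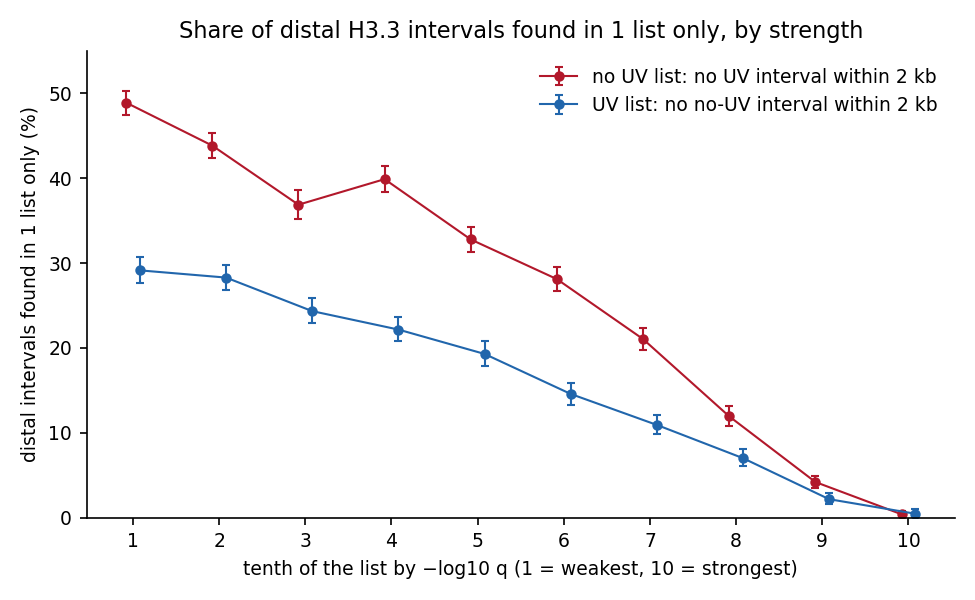
Share of distal H3.3 regions found in 1 list only (%, y axis) by decile of −log10 q within that list (x axis, weakest to strongest), with exact 95% intervals as bars. The share falls from 48.9% to 0.420% in the no UV list and from 29.1% to 0.483% in the UV list.

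The members were narrow and had single summits. Their median width was 353 bp (350 to 356 bp), compared with 474 bp (470 to 478 bp) in shared regions and 350 bp in regions only after UV. Widths ran from 281 bp, the shortest interval of the list, to 2437 bp. More than 1 summit was present in 2.02% of members and 13.4% of shared regions. Members were narrower than shared regions in 10 of 10 strength deciles and on 23 of 23 chromosomes. The rule measured distance from the ends of the interval, so wider intervals reach closer to UV intervals. The widths are therefore a description.

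Most members lay in introns. By the midpoint of the interval, 73.1% (72.2 to 73.9%) were in introns, 23.4% (22.6 to 24.2%) between genes and 3.52% in exons. Shared regions were intronic in 68.1% (67.5 to 68.7%), regions only after UV in 70.4% (69.1 to 71.6%), and distal background windows in 58.9%. The intronic share of members exceeded that of shared regions on 22 of 23 chromosomes and in 9 of 10 strength deciles. It was 76.8% in members with a 7SL match and 64.0% (62.3 to 65.7%) in those without, compared with 70.6% and 61.7% (60.6 to 62.9%) in shared regions. The excess of members over shared regions was thus 4.97 percentage points over all regions (3.95 to 5.98) and 2.25 points without a match (0.212 to 4.28).

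The share of distal regions lacking a UV interval rose with distance from the TSS. It was 26.97% (26.3 to 27.7%) between 5 and 10 kb, 29.6% between 10 and 20 kb, 31.3% between 20 and 30 kb and 33.2% (31.7 to 34.6%) between 30 and 50 kb. Over the same classes, the intronic share of members went from 76.2% to 63.9%, the share with a 7SL match from 79.2% to 52.5% and the median GC content from 48.2% to 45.4%. The nearest UV interval was 2 to 5 kb away for 28.2% of members, 5 to 10 kb for 23.6%, 10 to 50 kb for 36.0% and over 50 kb for 12.2%. Among chromosomes, the lowest share of distal regions lacking a UV interval was on chromosome 19, at 15.9% (14.1 to 17.9%), and the highest were on chromosomes 13 (37.9%), X (37.7%) and 4 (37.5%). On 23 of 23 chromosomes the share in the no UV list was above that in the UV list.

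GC content separated the sets most clearly once the repeat was set aside. Over all regions, the median was 47.4% (47.3 to 47.5%) in members, 48.0% (47.9 to 48.0%) in shared regions and 49.9% in regions only after UV. Members were below shared regions on 17 chromosomes and above on 5, and below them in 10 of 10 strength deciles. With −log10 q of at least 5 in the no UV list only, the pooled difference was 0.0859 percentage points (-0.127 to 0.370), an interval that spans both signs. Among regions with a 7SL match, the 3 medians were 48.5%, 48.1% and 49.3%. Among the 3119 members without a match, the median was 42.1% (41.8 to 42.5%), compared with 46.7% (46.3 to 47.0%) in 7384 shared regions and 56.8% (55.9 to 57.7%) in 1627 regions only after UV. Distal background windows without a match had a median of 38.2%. Without a match, members had a lower median than shared regions on 23 of 23 chromosomes and in 9 of 10 strength deciles, the exception being the strongest decile with 2 such members. They were also lower than regions only after UV on 23 of 23 chromosomes. The lists as a whole differed in the same direction. Over all distal regions without a match, the median was 44.97% in the no UV list and 52.13% in the UV list. Over all intervals without a match, it was 56.47% and 63.06%. Whether members differ from regions only after UV beyond this difference between the single libraries was not tested. Splitting regions by the match was chosen after the data were seen.

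**Figure D3:**
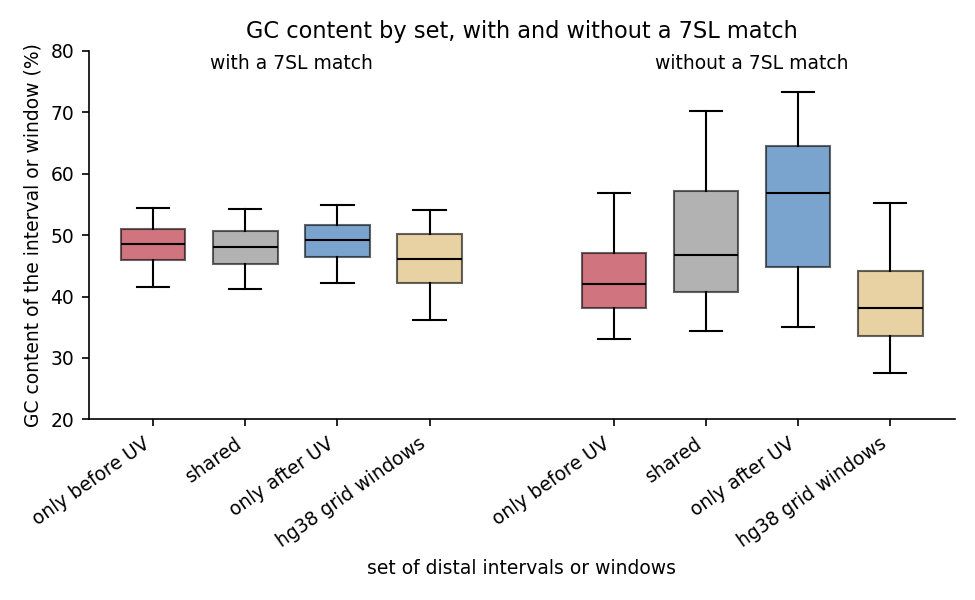
GC content (%, y axis) of distal H3.3 regions only before UV, shared and only after UV and of distal background windows (x axis), with and without a match to 7SL RNA. Lines mark medians, boxes the quartiles and whiskers the 5th and 95th percentiles, and the medians without a match are 42.1%, 46.7%, 56.8% and 38.2%.

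Sequence motifs were counted on either strand within 150 bp of the summit, with AP-1 as TGANTCA, TEAD as GGAATG, RUNX as TGTGGT, CEBP as TTGCNNCAA, the E-box as CAGCTG, the CTCF core as AGGGGGC, SP/KLF as GGGCGG and ETS as CCGGAAG. The last bases of the CTCF core can overlap an SP/KLF motif. N stands for any base, so the AP-1 letters take in the usual site, TGACTCA or TGAGTCA. They also take in TGAATCA and TGATTCA, and these forms were not counted apart. AP-1 factors (FOS and JUN family) and TEAD factors bind many enhancers of fibroblasts, and SP and KLF factors bind GC boxes. A match to the letters is a description of the sequence and not evidence of binding.

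AP-1 motifs were more frequent in the members than in shared regions, while the order against the other sets depended on peak strength and GC content. They were present in 10.4% (9.79 to 10.95%) of all member windows, compared with 8.09% (7.77 to 8.43%) of shared windows, 8.95% (8.18 to 9.76%) of windows only after UV, 7.45% of all no UV intervals and 9.39% of distal background windows. Among stronger members the share was 8.90% (8.29 to 9.54%) with −log10 q of 3 or more in both lists. It was 8.27% (7.52 to 9.07%) with 5 or more in both and 8.37% (7.28 to 9.57%) with 5 or more before UV only. Only the interval at 5 in both lists lay below the 9.39% of background windows, and the others held it. These members carried a 7SL match in 76.95%, 81.2% and 82.4%, compared with 17.6% of background windows, so the sets differ in repeat content. Without a 7SL match, the share was 16.9% (15.6 to 18.3%, 528 of 3119) in members, 11.6% (10.9 to 12.4%) in shared regions, 11.6% (10.1 to 13.3%) in regions only after UV and 9.78% (9.42 to 10.2%) in background windows. The share of members exceeded that of shared regions on 21 of 23 chromosomes and in 8 of 10 strength deciles. The other 2 deciles, the strongest, held 11 and 2 members without a match, none with a motif. The difference between members and shared regions was 5.31 percentage points (3.81 to 6.85) in these windows, 2.01 (0.191 to 3.86) over whole intervals, which were wider in shared regions, and 2.31 (1.38 to 3.29) within 50 bp of the summit. GC content moved with this result and was therefore held within 6 classes. The share of members was above that of shared regions and of background windows in 6 of 6 classes. Against regions only after UV it was higher in only 2 of 6, so that the difference from that set did not hold at like GC content. In the class of 35 to 40% GC, for example, AP-1 motifs were in 19.2% of 806 members, 15.3% of 1136 shared regions, 19.5% of 164 regions only after UV and 9.84% of 6516 background windows.

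GC-rich motifs showed the opposite order. SP/KLF motifs were in 4.52% (3.82 to 5.31%) of members without a 7SL match, 16.6% (15.8 to 17.5%) of shared regions and 28.6% (26.4 to 30.8%) of regions only after UV. The CTCF core was in 4.30%, 7.68% and 9.77%, the E-box in 13.4%, 19.3% and 24.8%, and the ETS motif in 0.930%, 1.96% and 2.09% of the same sets. Distal background windows without a match held SP/KLF motifs in 2.49%, the CTCF core in 2.41%, the E-box in 10.55% and the ETS motif in 0.497%. Members thus lay between background windows and shared regions. The GC content of the sets had the same order, and these motifs were not compared within GC classes. The lists as a whole also differed. Over all distal regions without a match, SP/KLF motifs were in 13.02% of the no UV list and 23.28% of the UV list. Over all intervals without a match, they were in 35.15% and 45.97%. Whether members differ from regions only after UV beyond this difference between single libraries was not tested. TEAD motifs were in 655 of 3119 members without a match (19.6 to 22.5%), compared with 19.3% (18.4 to 20.2%) of shared regions and 16.0% (14.3 to 17.9%) of regions only after UV, and RUNX motifs were in 20.6%, 18.2% and 17.1%. The TEAD intervals of members and shared regions overlapped.

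**Figure D4:**
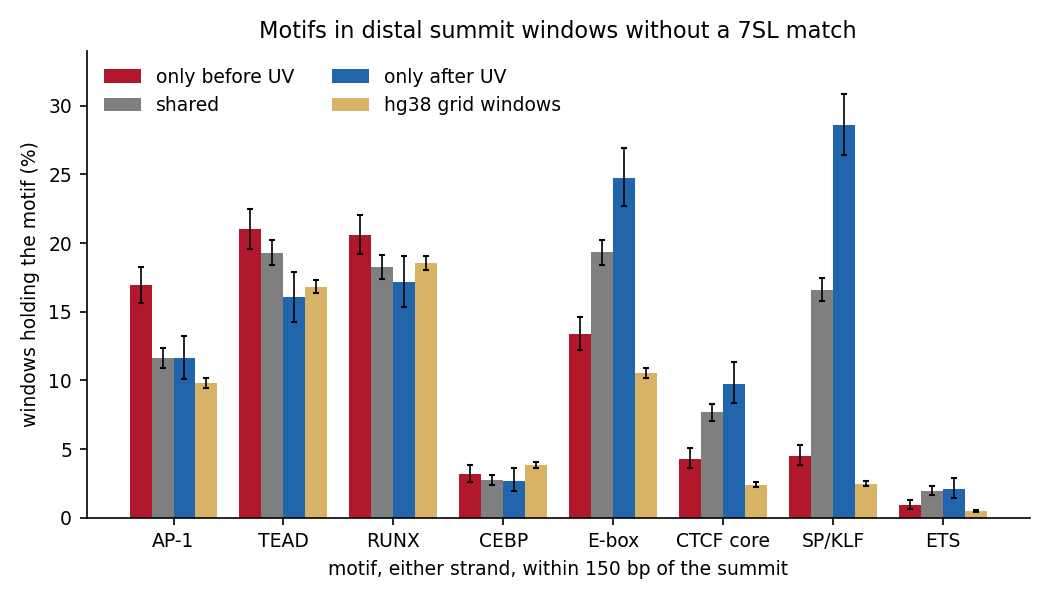
Share of summit windows (%, y axis) holding each of 8 motifs (x axis) among distal regions without a 7SL match, with exact 95% intervals as error bars. Members lead for AP-1 (16.9% against 11.6% in shared regions), and regions only after UV lead for SP/KLF (28.6% against 4.52% in members).

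By nearest TSS, the members fell to 6666 genes, of which 910 had 3 or more members, 7.01% of the 12985 genes with a distal region before UV. These 910 genes, 638 of them protein-coding and 120 lncRNA genes, held 3621 members (33.6%). A single member was found for 4369 genes. The number with 3 or more fell to 56 when −log10 q of at least 5 was required before UV, and to 150 without the regions matching 7SL RNA. The nearest TSS belonged to a protein-coding gene for 58.7% of members, and 77.5% of those lay within that gene. The 638 protein-coding genes were long, with a median length of 131 kb, compared with 57.3 kb for the 6310 with any distal region. An H3.3 interval within 1 kb of a TSS was present in both lists for 82.1% (78.9 to 85.0%) of the 638 genes and only before UV for 3.61% (2.30 to 5.36%). Among the 885 protein-coding genes that had 3 or more distal regions but no member, these shares were 72.4% and 3.28%, and their median length was 44.8 kb. Gene length thus moved with the number of members, and its part in the TSS shares was not tested.

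UBE2H, which encodes a ubiquitin-conjugating enzyme, had the most members. Of its 18 distal regions before UV (chr7:129830732-129952960, 122 kb), 16 had no UV interval within 2 kb, and 7 distal regions were present after UV. Its members had −log10 q values of 1.44 to 7.04, and 12 of the 16 carried a 7SL match. EIF4G3, a translation initiation factor, was similar, with 11 of 14 regions having no UV interval nearby and 4 distal regions present after UV. DLG1, a scaffold protein of cell junctions, had 15 members of 30 distal regions, and 18 were present after UV.

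Signalling genes followed. NRG1, a ligand of ERBB receptors, had 13 members of 24 regions and 10 after UV. KCNMA1, the pore subunit of a calcium-activated potassium channel, had 13 of 33 and 20 after UV. PLCB4, a phospholipase C, had 12 of 66 with 52 after UV, and TRIO, a guanine nucleotide exchange factor, had 10 of 52 with 43 after UV. Both are thus genes where members were a small share of many regions.

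Other named genes act in the cytoskeleton and elsewhere. CALD1 (caldesmon) had 10 of 26, FMN2 (a formin) 10 of 24 and EML4 (a microtubule-binding protein) 9 of 17. ARID5B, a DNA-binding protein, had 11 of 19. FNDC3B had 10 of 30, ADK (adenosine kinase) 10 of 25 and BRIP1 (a DNA repair helicase) 10 of 17. Together the 15 protein-coding genes with the most members held 171 members of 412 distal regions before UV (41.5%, against 29.2% over all genes) and 251 after. They were picked for their number of members, so nothing is read from this share. In all, 159 of the 171 members were intronic. A 7SL match was present in 127 of the 171 (74.3%), near the 71.0% of all members. In ADK and BRIP1 every member carried one, whereas 5 of 10 did in CALD1 and 5 of 12 in PLCB4. A TSS interval was present in both lists for 14 of the 15 genes, the exception being EML4 with none in either.

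**Figure D5:**
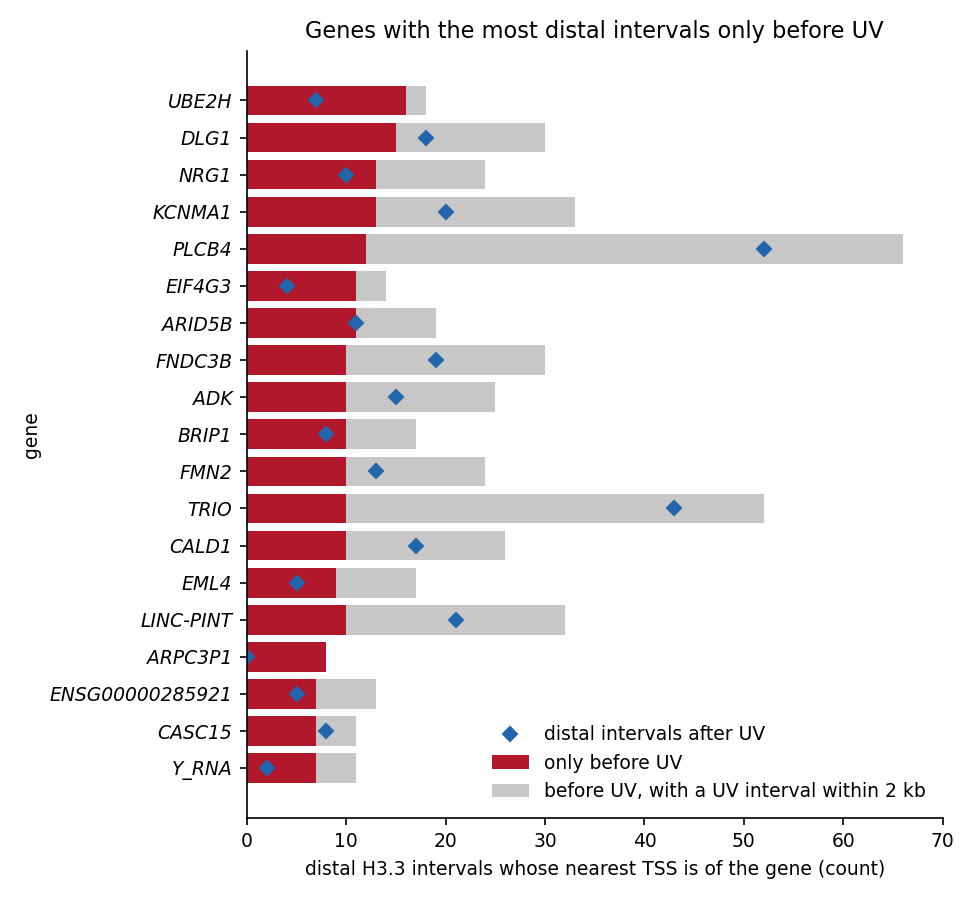
Number of distal H3.3 regions (x axis) whose nearest TSS belongs to each of the named genes (y axis), with members in red, shared regions in grey and distal regions of the UV list as diamonds. UBE2H has 16 members of 18 regions, and PLCB4 has 12 of 66.

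Among other gene types, the lncRNA genes LINC-PINT and CASC15 had 10 members of 32 regions and 7 of 11. ENSG00000285921, also a lncRNA gene, had 7 of 13, and only 1 of these 7 members lay within it. The pseudogene ARPC3P1 had 8 of 8, and a Y_RNA gene on chromosome 12 had 7 of 11. The members of these last 2 lay outside them, in the introns of the protein-coding genes STAU1 and SBNO1, as described next.

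Members also occurred in runs. Neighbouring members were within 10 kb of each other in 23.8% of 10741 pairs, and the median distance between starts was 65.8 kb. The spacing of shared regions and of regions only after UV was not measured. Runs are therefore a description and not a trait particular to the members. The run with the most members, 8 in 34.4 kb (chr20:49116395-49150777), lay within STAU1, a protein that binds double-stranded RNA, and the nearest UV intervals were 3.72 kb before and 6.13 kb after it. All 8 were intronic, all 8 carried a 7SL match, and their −log10 q values were 1.98 to 5.13. Runs of 7 members lay in DENND5A (14.0 kb), FAM193A (16.9 kb) and SBNO1 (20.4 kb), again with a 7SL match in every member. The fifth run, 7 members in 27.3 kb of an NRG1 intron, differed in that 4 of 7 had a match and the GC content of its members was 36.6 to 48.7%.

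Members became few towards the strong end, with 134 in the ninth decile (−log10 q of 10.4 to 16.7) and 11 in the strongest. The 10 strongest members lay below many shared regions. The first, in an intron of RFX1, a transcription factor gene, had a −log10 q of 24.1, an 8.16-fold enrichment and a GC content of 73.4%, with the nearest UV interval 5423 bp away. It had no 7SL match, and 1262 distal regions of the list were stronger. The second lay in an exon of the lncRNA gene ENSG00000224099 (20.9), and the third in FNDC3B (20.4), both with a 7SL match. MIR2277 was the nearest gene of the fourth (19.8), which had 59.4% GC and no match. The others, with −log10 q of 17.2 to 19.4, lay nearest to ENSG00000231811, NOTCH2 (a receptor), ENSG00000287676, EFNA5 (an ephrin ligand), ENSG00000254317 and DHX9 (an RNA helicase), and all 6 carried a match. In all, 8 of the 10 strongest members matched 7SL RNA.

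The limits of the rule passed through regions of ordinary strength. A member near XRCC5 lay 5002 bp from its TSS, and a region near AGFG1 at 5000 bp was left out. At the far limit, a member in PTPRK lay at 49965 bp, and a region nearest to ENSG00000285921 at 50009 bp was left out. A member in MYOF lay 2001 bp from a UV interval, and a region in SLC4A5 at 2000 bp was shared. The −log10 q values of these 6 regions ran from 2.08 to 9.71.

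Gene lists relevant to fibroblasts and UV, 8 in all, were examined, with each region given to its nearest TSS. Over all protein-coding genes, 6322 of 21693 distal regions were members, or 29.1% (28.5 to 29.8%), with a median of 0 distal regions per gene. Of all 19970 protein-coding genes, 6310 had a distal region and 638 had 3 or more members. Regions of a gene are not independent, so the intervals below are too narrow. Growth factor receptors and ligands had 37 members of 96 regions (38.5%, 28.8 to 49.0%). Of the 40 genes in this list, 21 had a distal region, and 5 had 3 or more members. Besides NRG1 these were BMPR2 with 4 of 4 regions, NOTCH2 with 4 of 5, FGF5 with 3 of 4 and PDGFC with 3 of 5. Lung mesenchyme transcription factors had 28 of 79 (35.4%, with an upper bound of 47.0%), with 4 of 7 in EBF2, 3 of 5 in PRRX1 and 3 of 11 each in FOXP1 and RUNX1. AP-1 and immediate early genes had 10 of 29 (34.5%, 17.9 to 54.3%), 4 of them at IER5. The intervals of these 3 lists reached the share over all genes.

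Extracellular matrix genes had 31 of 153 (20.3%, 14.2 to 27.5%). COL5A2, a fibrillar collagen, held 7 of these, FBN2 (fibrillin) and LAMC1 (a laminin chain) 4 each, and COL4A2 (a basement membrane collagen) 3. Adhesion and actin cytoskeleton genes had 61 of 287 (21.3%, 16.7 to 26.5%), with 7 members each in LPP and PTK2 (focal adhesion kinase) and 5 each in VCL (vinculin) and NEDD9. CTNNA1 and ARHGAP29 had 4 members each and PDLIM5 had 3. These 2 lists lay below the share over all genes, with intervals, themselves too narrow, that did not reach it. The same held for p53 targets, given below, and the upper bound for TGF-beta and YAP targets was close to that share. Peak strength was not compared between the lists, so no difference is read from these shares. For TGF-beta and YAP targets the share was 22.5% (42 of 187, 16.7 to 29.1%), with 10 members in CALD1, 9 in CRIM1 and 3 each in TEAD1, TGFB2, TGFBR3 and LTBP1. At TGFB2, a TGF-beta ligand, only 3 of 28 regions were members, none with a 7SL match.

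Nucleotide excision repair genes had 10 members of 51 regions (19.6%, 9.82 to 33.1%), an interval that held the share over all genes, with 4 of them at RAD23B, a partner of the damage sensor XPC, which had 18 distal regions. Targets of p53 had 4 members of 51 (7.84%, 2.18 to 18.9%), no gene had 3, and 48 distal regions were present after UV. The p53 list had the lowest share of the 8 lists and rested on 11 genes with a distal region.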

How the data were processed

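H3.3 ChIP-seq of MRC5_VA cells, untreated or 3 h after 10 J/m2 UV-C, was analysed from 1 deposited peak list per condition, each from pooled DNA of 3 replicates. Input libraries were not analysed here. The submitters' processing notes name bcl2fastq 2.17, Trimmomatic 3.36, BWA 0.7.12, MACS 1.4.2 and hg38, and the study's methods add removal of duplicates with Biobambam2. The lists, as deposited by the authors, hold for each summit a score, a linear fold enrichment and −log10 p and q values, in a format typical of later MACS versions. Both lists began at a −log10 q of 1.302. The control, threshold and treatment of reads with several positions used for H3.3 are not given in the sources used here, nor is the depth, so precision is given for counts of regions only.

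Rows with the same coordinates were joined into 1 region with its strongest summit. Distances to TSSs and places in genes used GENCODE 44 on hg38, a midpoint being exonic, intronic or between genes. Windows of 301 bp around summits, and background windows of that length every 50 kb of hg38, were searched for motifs, 24-mer copies in hg38 and matches to RN7SL1 (blastn 2.17.0, word size 7, E value 0.001). Sequences were read from hg38. Intervals of differences were combined from those of each set. Python 3.11.15 with numpy 2.4.6, pandas 2.3.3, scipy 1.17.1, matplotlib 3.10.9 and pysam 0.24.0 was used, and the steps were tested on simulated data.

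Named genes were the 15 protein-coding and 5 other genes with the most members, those nearest to the 10 strongest members, listed genes with 3 or more members, the 5 runs with the most members within 100 kb and the regions at the limits of the rule. Some genes and sequences are not reported here. Members and lists were chosen with earlier results of these data known, and the 7SL and 24-mer measures were added after the data were seen. Alternatives covered the distances, thresholds, TSSs, gene assignment, list length, motif window and 7SL matches.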

Additional observations from a re-analysis of the deposited data

How the results depend on the processing

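The lists come from 1 pooled library per condition, so no replicate could be left out, and the causes of the changes were not tested. No paired analysis was possible because each condition has 1 library. Of 112 recomputed values, 45 stayed within their interval or within 1.5 times the count, and 67 moved. Results on autosomes only, by distance from the strongest summit or by the gene holding the region did not move. Among 12 alternatives, members stayed more often intronic and narrower than shared regions in 12, and lower in GC content in 11. Without 7SL matches, GC content stayed lower in 11 of 11 and AP-1 motifs more frequent in 13 of 13. The 7SL measures and leaving out 7SL matches were chosen after seeing the data. Depth is not known, so a region without a peak may still hold H3.3 that was not detectable.

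With UV intervals excluded within 1 kb, 35.6% of distal regions were members, with a GC content of 47.5%, AP-1 motifs in 9.69% and 7SL matches in 72.0%. Within 5 kb, these were 20.9%, 47.1%, 11.2% and 68.3%, with 72.1% in introns, 24.8% between genes and 515 genes with 3 or more members. Excluding overlaps only gave 18383 members (49.8%), a width of 362 bp, AP-1 motifs in 9.69%, 7SL matches in 68.3% and 1961 genes. With protein-coding TSSs only, 27.7% were members, 76.1% in introns and 19.2% between genes, with 47.9% GC, AP-1 motifs in 9.11% and 7SL matches in 77.4%. Over 10 kb from a TSS there were 6659 members (30.7%), 71.2% in introns and 26.2% between genes, with 46.9% GC, 7SL matches in 66.0% and 482 genes.

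Where both lists were held to −log10 q values of 3 or more, the width was 373.5 bp, GC content 47.8%, AP-1 motifs 8.90%, 7SL matches 76.9% and genes 595. At 5 or more in both, there were 4980 members (30.5%) of 430.0 bp and 47.7% GC, with AP-1 motifs in 8.27%, 7SL matches in 81.2% and 266 genes. At 5 or more in the no UV list only, there were 2341 (14.3%) of 394 bp and 47.9% GC, with AP-1 motifs in 8.37%, 7SL matches in 82.4% and 56 genes. With the no UV list shortened to as many regions as the UV list holds, 25.9% were members, of 358 bp and 47.6% GC, with AP-1 motifs in 9.56%, 7SL matches in 74.5% and 601 genes. Leaving out 7SL matches gave 3119 members (29.7%), 64.0% in introns and 31.9% between genes, of 373 bp and 42.1% GC, with AP-1 motifs in 16.9% and 150 genes. AP-1 motifs were in 15.2% of whole intervals and in 3.15% of windows reaching 50 bp to either side of the summit. Counting every gene with a TSS within 50 kb gave 3615 genes, and the stricter E value gave 7SL matches in 58.6%.

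The difference in 7SL share between members and shared regions, -0.740 percentage points, changed sign to 0.689 within 1 kb, 2.76 with protein-coding TSSs, 1.09 at −log10 q of 3 and 1.52 at 5 in both lists, 2.60 at 5 in the no UV list only and 0.585 with the reduced list. It was -6.54 (-7.46 to -5.62) for overlaps only, -4.07 (-5.24 to -2.91) within 5 kb and -2.00 (-3.37 to -0.637) over 10 kb from a TSS. The GC difference of -0.57 changed sign to 0.0859 (-0.127 to 0.370) at 5 in the no UV list only, an interval that spans both signs.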
